A study of Rattus norvegicus with 24 samples.

Results

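The nucleus accumbens (NAc) data of this study, 14 of its 24 RNA sequencing libraries, were used to ask where the difference between fentanyl and saline rats was itself different in females and in males. The libraries were taken by their labels. They came from 4 fentanyl females (animal codes beginning with L), 3 saline females (SF), 4 fentanyl males (N) and 3 saline males (SM), all Sprague Dawley rats, each code read as a separate animal. No genetic alteration is given in the labels, and for doses, ages and the time since the last drug no source used here gives a value. Bilateral tissue punches were taken after decapitation in place of a last choice session, and total RNA was sequenced after depletion of ribosomal RNA. The other 10 libraries came from the ventral tegmental area (VTA) of 10 of the same rats. Each of the 4 groups carries a code series of its own, so neither sex nor treatment can be told apart from cohort.

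The NAc is the ventral part of the striatum, built mostly of GABAergic spiny projection neurons with smaller numbers of interneurons and glia, and it receives dopamine axons from the VTA. Fentanyl is an agonist of the mu opioid receptor, which spiny neurons carry and which, on GABA neurons of the midbrain, releases dopamine neurons from inhibition. Ending repeated opioid exposure produces withdrawal, a state in which accumbens transcription is known to change. Mitochondrial DNA encodes subunits of the respiratory chain, ribosomal RNAs and the transfer RNAs between them, and neurons depend heavily on respiration.

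The difference of effects is defined here as the fentanyl minus saline difference of females minus that of males, on the log2 scale. It equals the female minus male difference among fentanyl rats minus the female minus male difference among saline rats, and the first of these will be called the fentanyl part and the second the saline part. A feature was attributed to the saline groups where the saline part made up over 66.7% of the difference, to the fentanyl groups where it made up under 33.3%, and to both between these bounds. The parts themselves were not tested. The deposited tables give Ensembl identifiers and no names, and the reference table at hand matched 0 of them, so features are given by position as the tables list it, on a genome build that the sources used here do not name. The marker and pathway lists could not be applied for the same reason, and the labelled tissue could not be checked against its markers.

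Total counts per NAc library ran from 3.46 M to 5.01 M. Without mitochondrial features the totals were 3.3 M to 3.75 M in saline females, 2.24 M to 3.26 M in fentanyl females, 2.57 M to 3.01 M in saline males and 2.69 M to 2.96 M in fentanyl males. With all libraries thinned to one such depth, 81 features were called in the comparison below, 72 of them among the 95 called at full depth. Of 32552 features in the tables, 13248 passed a low-count filter. The results concern the 12762 of these on autosomes (12733) or the mitochondrial chromosome (29).

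The fentanyl effect differed between the female and male groups for 95 of the 12762 features, or 0.744% (edgeR quasi-likelihood test, Benjamini-Hochberg adjusted p under 0.05). In 79 features, 0.619%, the difference was positive, and in 16, 0.125%, it was negative. The positive differences had a median of 1.06 log2 units (0.60 to 2.67) and the negative ones a median of -0.80 (-1.72 to -0.60). Over all 12762 features the median was -0.01 and 48.6% were positive. An unadjusted p under 0.05 was reached by 1780 features.

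All of these differences were attributed to both pairs of groups or to the saline pair. Of the 95 features, 40 were attributed to the saline groups (42.1%), 55 to both (57.9%) and 0 to the fentanyl groups. Over all features tested the shares were 42.1% saline, 26.2% both and 31.7% fentanyl. Only a feature with parts of opposite sign can be attributed to both, and 58.4% of all features had such parts, against 95 of 95 called. The shares over all features are therefore no like background. Among features with an unadjusted p under 0.05 (edgeR) they were 33.8% saline, 57.3% both and 8.93% fentanyl. The positive features divided into 34 saline and 45 both, the negative ones into 6 saline and 10 both. The saline part was the larger of the parts in 84 of 95 features, compared with 56.4% of all features tested. It exceeded 2 of its standard errors in 95 of 95 features, and the fentanyl part did so in 78. The same counts over all features were 12.4% and 9.13%. Since the calls rest on these same values, the counts describe the called features and are no further test.

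In the 79 positive features, saline females were low and fentanyl females high, with both male groups between them. The median saline part was -0.67 and the median fentanyl part 0.37. Read as drug effects, the same values were a median of 0.94 in females and -0.14 in males. In the 16 negative features the order was turned, with a median saline part of 0.53 and a median fentanyl part of -0.29. Their median drug effect was -0.74 in females and 0.14 in males. The saline and fentanyl parts had opposite signs in 95 of 95 features, against 58.4% of all features. The female effect was the larger in size in 93 of 95 (66.6% of all features). It pointed away from the male effect in 74 (41.8% of all features). Features with an unadjusted p under 0.05 (edgeR) already had parts of opposite sign in 97.6%. In these features the female effect was the larger in 87.3%, and the effects were opposite in 70.6%. Calls were chosen for a large difference between these same values, which favours such patterns, so these counts are a description and no test.

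**Figure D1:**
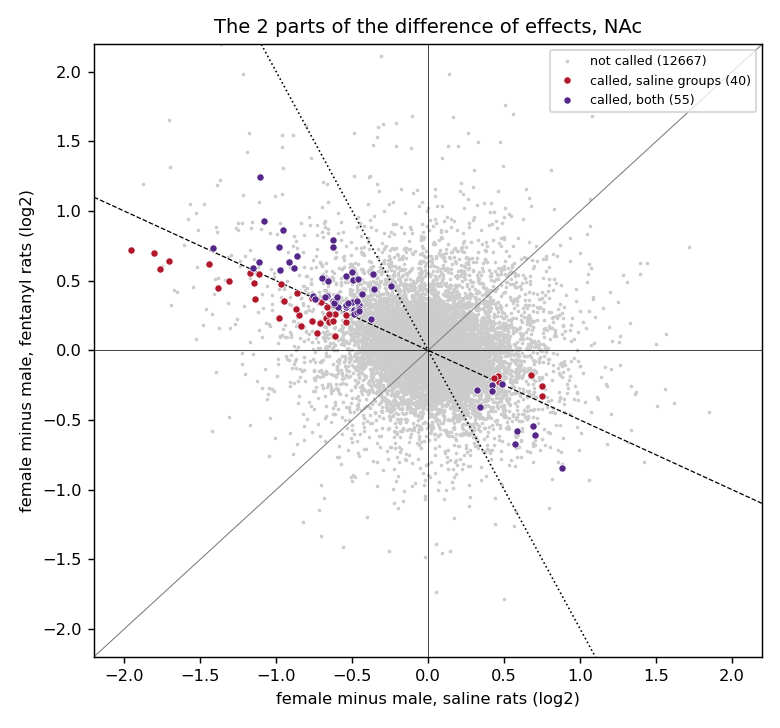
Each point is 1 of the 12762 features: the horizontal axis is the female minus male log2 difference among saline rats and the vertical axis the same difference among fentanyl rats, and a few points beyond the axes are not drawn. The solid diagonal marks no difference of effects. The dashed line marks a saline share of 66.7% and the dotted line one of 33.3%. The 40 red and 55 purple called features lie in the upper left and lower right corners, and none lies beyond the dotted line.

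Group means of log2 CPM (CPM being counts relative to library totals, with scaling between libraries) showed the same order feature by feature. Saline females had the lowest group mean and fentanyl females the highest in 75 of the 79 positive features. In 3 more, saline females were lowest and saline males highest. In the last, fentanyl males were lowest and saline males highest. Among the 16 negative features, fentanyl females were lowest and saline females highest in 15. The exception was a feature of 34 exon blocks on chromosome 1, described below, with saline males lowest and fentanyl males highest.

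Single libraries overlapped little between the saline groups. The 3 saline females lay wholly below the 3 saline males in 79 of 79 positive features, which holds for 10.1% of all features, and wholly above them in 16 of 16 negative features, which holds for 10.4%. The fentanyl groups, with 4 libraries each in place of 3, overlapped more often, as they did over all features. The counts of the saline and fentanyl pairs are therefore not on one scale. Fentanyl females lay wholly above fentanyl males in 30 of 79 positive features (1.78% of all features) and wholly below them in 6 of 16 negative features (1.62%).

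Within the female groups the fentanyl libraries lay wholly above the saline ones in 78 of 79 positive features (12.4% of all features) and wholly below them in 16 of 16 negative ones (12.3%). Within the male groups the fentanyl libraries lay wholly below the saline ones in 10 of 79 positive features (3.96%) and wholly above them in 3 of 16 negative ones (4.24%). The rule that chose the features used these values, so these counts are given as a description.

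Summed up per library, the deviation of the positive features from their mean over libraries had a median of -0.60, -0.55 and -0.55 log2 units in saline females 1, 2 and 4. It was 0.64, 0.39, 0.27 and 0.16 in fentanyl females 1, 2, 7 and 8. Saline males 1, 3 and 4 had -0.03, 0.34 and 0.02, and the 4 fentanyl males ran from -0.06 to 0.06. In these features saline females were the tightest group and stood apart from all other libraries, while fentanyl females were spread. The male libraries, apart from saline male 3, lay near 0. The features were called on these same values, which favours such a separation, so the medians are a description and no test. Over all features tested the median deviation ran only from -0.002 in fentanyl female 1 to 0.017 in saline female 4. The negative features had medians of 0.37 to 0.48 in saline females, -0.40 to -0.17 in fentanyl females, -0.24 to -0.03 in saline males and -0.10 to 0.14 in fentanyl males.

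**Figure D2:**
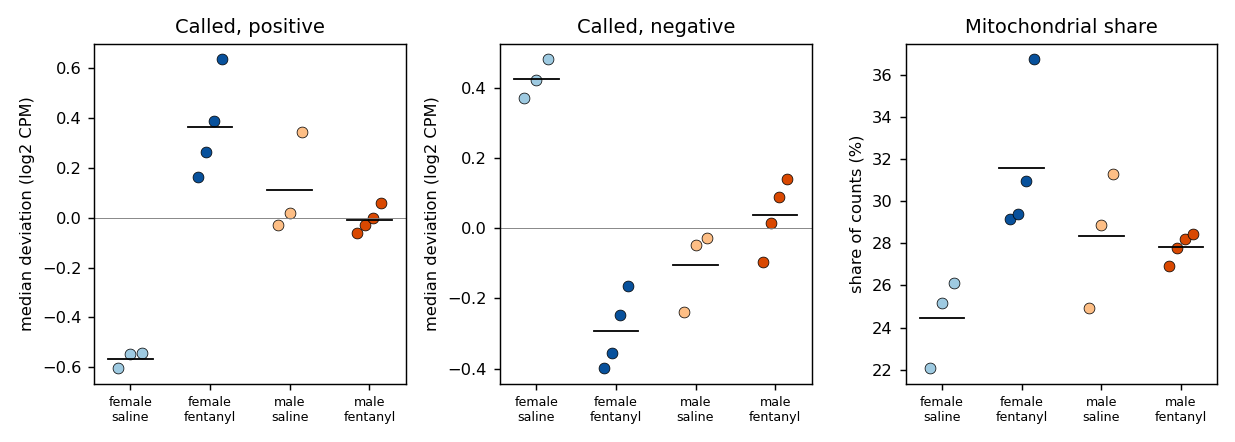
Each point is 1 NAc library and each bar a group mean. The left and middle panels give the median deviation in log2 CPM of the 79 positive and 16 negative features from their means over the 14 libraries, and the right panel gives the percentage of counts on mitochondrial features. The 3 saline females stand apart in the left and middle panels, fentanyl female 1 is highest in the left and right panels, and saline male 3 lies above the other saline males in both of those.

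The number of calls depended on single libraries. It was 20 without saline male 3 and 23, 46 and 39 without saline female 1, 2 or 4. It was 57, 42 and 41 without fentanyl male 1, 3 or 7, and it grew to 161 without fentanyl female 2 and to 282 without fentanyl female 8. The sign of the difference and of the saline part was kept in all 14 such fits for 95 of 95 features. The attribution was the same in all 14 for 45 of them (20 saline, 25 both), and 2 were attributed to the fentanyl groups in some fit. Without fentanyl female 1 the division turned, to 67 calls for the saline groups and 31 for both. It was 66 and 62 without saline male 1 and 61 and 43 without saline male 4. In every other such fit the calls attributed to both were more numerous. Over 23 alternative fits, 17 of the 95 were called in each one and 6 in at most 50% of them.

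**Figure D3:**
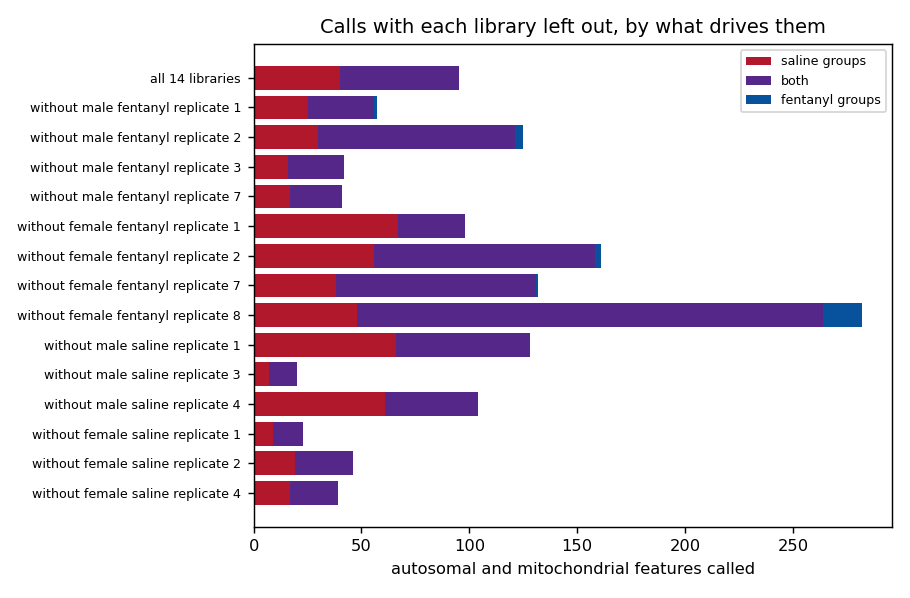
Bars give the number of autosomal and mitochondrial features called with all 14 NAc libraries (95) and with each library left out, divided by whether the saline groups, both or the fentanyl groups carried the difference. The bar is shortest without male saline replicate 3 (20) and longest without female fentanyl replicate 8 (282), the only fit of this kind with more than a few calls attributed to the fentanyl groups (18).

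The features with the smallest p in each direction show the pattern in single animals. ENSRNOG00000032825 has 1 exon block of 461 nt on the minus strand of chromosome 10, 38024477 to 38024937. Its CPM was 10.9, 14.1 and 15.6 in saline females, 41.9, 35.6, 47.1 and 43.7 in fentanyl females, 29.1, 49.4 and 28.4 in saline males, and 35.3, 30.6, 28.8 and 28.7 in fentanyl males. Saline females lay below all other libraries, and fentanyl females above all fentanyl males, though saline male 3 was the highest library of all. The difference of effects was 1.83 ± 0.25 (SE), with an adjusted p of 0.00252 by the edgeR quasi-likelihood test. Its saline part was -1.39 ± 0.20 and its fentanyl part 0.45 ± 0.16. The saline groups therefore carried it, at 75.6%. It was called in all 23 alternatives, with adjusted p from 3.14e-12 to 0.0191.

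ENSRNOG00000032635, 1 exon block of 832 nt on the plus strand of chromosome 3, 3389612 to 3390443, overlaps another feature of the tables. Saline females had 7.75, 9.0 and 9.87 CPM and fentanyl females 26.1, 21.9, 20.6 and 15.9. Saline males had 17.4, 21.7 and 21.0 and fentanyl males 14, 14.7, 11.8 and 16.4. Saline females were again below every other library, the female and male fentanyl groups overlapped, and fentanyl males lay below saline males. Its difference of effects was 1.73 ± 0.26, with an adjusted p of 0.00425 (edgeR). The saline part of -1.17 ± 0.20 was 67.8% of it, just past the bound for the saline groups, and the fentanyl part was 0.56 ± 0.17. The sources used here do not state how reads of overlapping features were counted.

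ENSRNOG00000006761, on the plus strand of chromosome 5 from 103479767 to 103654247, has 9 exon blocks of 1491 nt together and the smallest p among the negative features. Saline females had 41.4, 45.6 and 45.6 CPM and fentanyl females 23.0, 29.6, 24.9 and 25.2. Saline males had 27.5, 25.7 and 25.7 and fentanyl males 33.5, 31.3, 28.8 and 29.7. Saline females were above all other libraries, and here fentanyl males were wholly above saline males. Females and males differed in effect by -1.0 ± 0.18, with an adjusted p of 0.00668 (edgeR). It consisted of a saline part of 0.75 ± 0.13 and a fentanyl part of -0.26 ± 0.12. The saline groups carried 74.6% of it, and the call was kept in all 23 alternatives.

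ENSRNOG00000018111, with 29 exon blocks on the plus strand of chromosome 3 from 161425988 to 161462879, was more abundant. Its CPM was 132, 122 and 119 in saline females, 73.5, 81.5, 73.1 and 88.4 in fentanyl females, 84.3, 81.3 and 100 in saline males, and 95.5, 85.5, 95.0 and 99.8 in fentanyl males. Only the saline females stood apart, since each of the other groups overlapped another. Its difference of effects was -0.73 ± 0.15, with an adjusted p of 0.0166 (edgeR). The saline part of 0.49 ± 0.11 was 66.6% of it, just under the bound, so both pairs of groups are counted. Without saline male 3 or saline female 1 the call was lost, with adjusted p of 0.0927 and 0.0846.

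**Figure D4:**
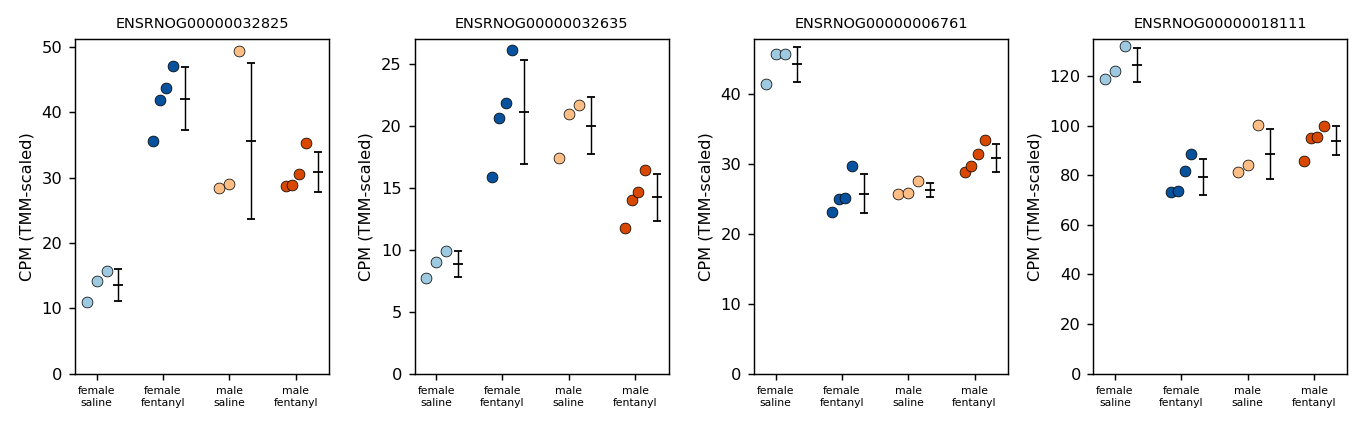
CPM of the 4 features given by identifier, 1 panel each, with a point for each of the 14 NAc libraries by group, and the group mean with its SD beside the points. Each vertical axis starts at 0. Saline females are the lowest group in the left pair of panels and the highest in the right pair.

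The rule for naming features took 28 of the 95, of which 13 were attributed to the saline groups and 15 to both. The largest positive difference, 2.67 ± 0.49, belonged to a 429-nt single block on chromosome 14 (43694183 to 43694611) with few counts. It had 0.369, 2.57 and 2.42 CPM in saline females, 6.19, 8.62, 8.57 and 7.08 in fentanyl females, 6.80, 8.27 and 5.72 in saline males, and 4.05, 5.30, 5.27 and 3.92 in fentanyl males. The saline groups carried 73.0% of it, and it overlaps another feature. The fentanyl females and the saline males lay at like levels there, above the 4 fentanyl males, and the saline females were lowest, at 2, 12 and 13 counts. Without saline male 3 the call was lost, with an adjusted p of 0.0601 (edgeR).

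Beside the 84 features with the larger saline part, the rest of the 95 had the larger fentanyl part. A feature of 6 exon blocks on chromosome 16 (1979191 to 1985908) had 15.7, 13.5 and 14.9 CPM in saline females, 47.4, 41.8, 34.3 and 29.8 in fentanyl females, 21.5, 28 and 19.1 in saline males, and 22.1, 23.1, 20.6 and 22.3 in fentanyl males. Here fentanyl females were above all other libraries and saline females below all of them, while the male groups overlapped. The difference of effects of 1.42 ± 0.24 (adjusted p 0.00452, edgeR) had a fentanyl part of 0.79 ± 0.15 and a saline part of -0.63 ± 0.18, a saline share of 44.2%.

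The largest fentanyl part, 1.25 ± 0.33, was that of a 282-nt single block on chromosome 13 (110372164 to 110372445), measured at 1.5 to 8.25 CPM. Fentanyl female 1 had 8.25 CPM and the other fentanyl females 4.28 to 5.13, against 1.76 to 3.13 in fentanyl males. Its saline part was -1.11 ± 0.39, so both pairs of groups carried the difference of 2.35 ± 0.51, the saline pair 47.1%. Its call was lost in 7 of 22 alternatives, which left out fentanyl male 1, 3 or 7, saline male 3 or any saline female, with adjusted p up to 0.146 (edgeR).

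Among the negative features, the largest difference was -1.72 ± 0.35, for a feature of 4 exon blocks on chromosome 1 (84328114 to 84338483). It had 12.2, 8.14 and 11.5 CPM in saline females, 4.12, 3.09, 6.43 and 4.64 in fentanyl females, 6.52, 4.85 and 5.96 in saline males and 8.36, 7.71, 8.52 and 8.09 in fentanyl males. In each sex the fentanyl and saline libraries did not overlap, and they lay in opposite order. The saline part of 0.88 ± 0.26 and the fentanyl part of -0.84 ± 0.24 were of nearly equal size, a saline share of 51.0%. The call was lost at equal depth and without saline male 3 or saline female 1 or 4, with adjusted p up to 0.0962.

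The most saline-sided of the negative features lay on chromosome 10 (48881049 to 48881881, 7 exon blocks). Saline females had 62.9, 62.3 and 55.9 CPM and every other library 29.3 to 43.9. Its difference of effects was -0.86 ± 0.18, of which the saline groups carried 79.0%, and its effect in males was -0.05 ± 0.13. The call was lost without fentanyl male 3 or 7, saline male 3 or saline female 1 or 2, with adjusted p up to 0.106.

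The feature of 34 exon blocks on chromosome 1 (261106760 to 261140389) was 1 of the 2 features with the larger effect in males. Saline males had 9.52, 8.84 and 6.43 CPM and fentanyl males 16.7, 13.5, 14.5 and 13.7. Saline females had 12.6, 13.1 and 14.1 and fentanyl females 9.62, 11.5, 10.7 and 8.06. The libraries of the sexes were separate under saline and again, in the opposite order, under fentanyl. The male effect was 0.83 ± 0.20 and the female effect -0.41 ± 0.19, and both pairs of groups carried the difference, the saline pair 55.8%. Its call was lost in 10 of 22 alternatives, among them equal depth and the removal of fentanyl male 1, 3 or 7, saline male 3 or 4, or any saline female, with adjusted p up to 0.0956 (edgeR).

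Values near the bounds were close to each other. The last features inside the adjusted p threshold had 0.0469 and 0.0499, and the first outside it both had 0.0500. On either side of the 66.7% bound the shares were 66.6% and 66.6% below it and 66.7% and 66.8% above it.

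Called features were spread over the chromosomes, and positive calls were more frequent among short features. The share called also rose with mean CPM, from 0.176% positive and 0.022% negative below 10 to 1.20% and 0.300% at 100 or more. These sets were chosen after the values were known and carry no test. Among 802 autosomal features of a single exon block, 18 were called positive (2.24%) and 0 negative, and 16 of these 18 were among the 490 under 1000 nt (3.27%). Among 933 features under 1000 nt with more blocks, 13 were positive and 1 negative. Among 11310 autosomal features of at least 1000 nt, 49 were positive and 15 negative (0.433% and 0.133%). The median difference of the single-block features under 1000 nt was nevertheless 0.00, as it was -0.01 over all features, so the calls lay in the tail of the set. By autosome the share called by edgeR ran from 0% to 1.66% (6 of 361 features on chromosome 17), beside 0.744% over all features, and with so few calls a chromosome no order is read from these shares.

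Features that differ in level between the regions were called at shares below that of all features, 0.744%. The calls were too few for a difference to be read from these shares. Of 432 features whose NAc level was at least 4-fold the VTA level, 1 was called (0.231%), positive and attributed to both. Of 231 features at least 4-fold the other way, 0 were called by the edgeR quasi-likelihood test, and 7 had an unadjusted p under 0.05. In such tissue samples, fewer cells of a type and less RNA per cell cannot be told apart.

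The share of counts on mitochondrial features was taken from the raw counts of each library, without scaling between libraries. Mitochondrial features held 22.1%, 26.1% and 25.1% of the counts in saline females and 36.7%, 31.0%, 29.4% and 29.2% in fentanyl females. They held 24.9%, 31.3% and 28.9% in saline males and 28.2%, 27.8%, 26.9% and 28.4% in fentanyl males. Every fentanyl female was above every saline female, while the male groups overlapped, with saline males the more spread. The group means were 31.6 ± 3.54% (SD, n = 4), 24.4 ± 2.12% (n = 3), 28.4 ± 3.23% for saline males (n = 3) and 27.8 ± 0.661% for fentanyl males (n = 4).

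The difference of effects on this share was 7.64 percentage points. An exact two-sided permutation of sex within treatment, over 1400 regroupings, gave p = 0.0129. Such shuffling assumes no difference between the sexes in either treatment, so the p is not specific to the difference of effects. The saline part was -3.92 points and the fentanyl part 3.73 points, so both carried it, the saline groups 51.3%. With each library left out it was 5.92 to 9.37 points, with exact permutation p from 0.00143 to 0.0443, and it was smallest without fentanyl female 1. The division between the parts was less stable. Without fentanyl female 1 the fentanyl part was 2.00 points and the saline share 66.2%, and without saline male 3 the saline part was -2.44 points and the saline share 39.6%.

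Of the 13 mitochondrial features of at least 200 nt, 13 had a positive difference of effects, though the 3 nearest 0 (784, 681 and 1378 nt) changed sign in some alternatives, and 1 was called. Their median was 0.54, beside -0.01 over all features, and 7 had an unadjusted p under 0.05. These features share a genome, long precursor transcripts and their libraries, so they are not independent of each other. The called one has 204 nt (mitochondrial positions 7758 to 7961) and overlaps its neighbour. Its CPM was 9015, 11657 and 10596 in saline females, 27855, 21004, 18520 and 16412 in fentanyl females, 12892, 19331 and 15122 in saline males and 16508, 17515, 14483 and 15761 in fentanyl males. Saline females were below all other libraries, and fentanyl female 1 was highest.

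For that feature the difference of effects was 0.98 ± 0.23, with an adjusted p of 0.0385 by the edgeR quasi-likelihood test, and the saline groups carried 61.0%. It was called in 12 of the 21 alternatives that tested it, with adjusted p from 2.18e-08 to 0.194. The other long features with an unadjusted p under 0.05 were those of 348 nt (1.07), 684 nt (0.95), 1830 nt (0.80), 1143 nt (0.79), 955 nt (0.75) and 297 nt (0.54).

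Neighbouring mitochondrial features had unlike values, a difference that was not tested. The 681-nt feature that begins inside the 204-nt one had a difference of 0.09 ± 0.17, and the 784-nt feature after it 0.01 ± 0.16. The 1039-nt, 1545-nt and 1378-nt features had 0.33, 0.38 and 0.19, and the 519-nt feature, on the minus strand, 0.46. The 16 features under 100 nt had a median of 1.17 but wide errors, and 0 were called by edgeR, with 3 at an unadjusted p under 0.05. The largest of these 3, on the minus strand at 6865 to 6933, had a difference of 2.53 ± 0.54 and an adjusted p of 0.0572 (edgeR).

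**Figure D5:**
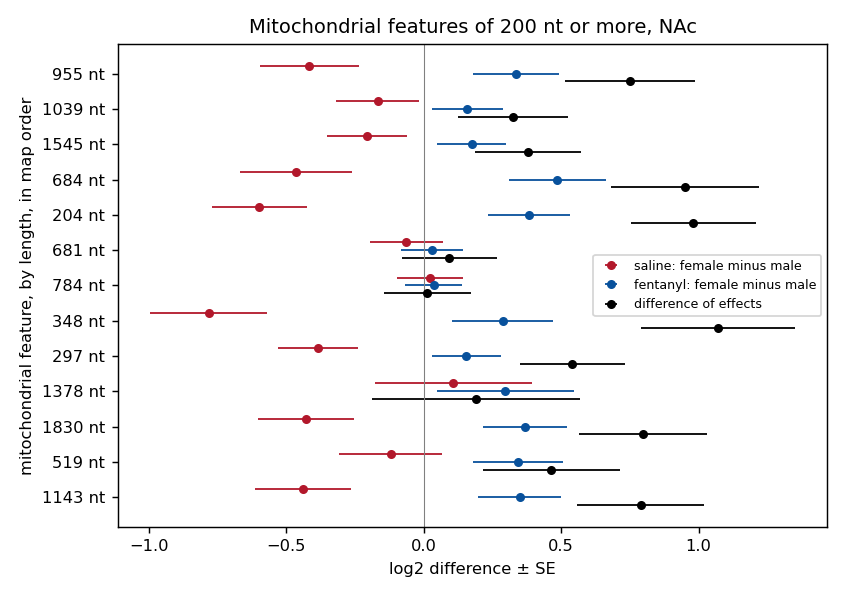
Horizontal axis: log2 difference with its SE for the 13 mitochondrial features of at least 200 nt, in map order and labelled by length. Red points are the saline part, blue points the fentanyl part and black points the difference of effects. The black points run from 0.01 to 1.07, and the 681-nt and 784-nt features lie next to 0 in all 3 values.

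The VTA libraries, which the NAc calls did not use, gave no call in the same comparison by edgeR. They came from 10 of the same rats (3 fentanyl and 2 saline of each sex), so the animals are not independent. Of 13883 autosomal and mitochondrial features tested there, 0 were called by the edgeR quasi-likelihood test, 1 by DESeq2, and 452 had an unadjusted p under 0.05. The smallest adjusted p was 0.251.

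Of the 79 features positive in the NAc, 25 had a positive difference in the VTA, where 49.4% of all features were positive, and their VTA median was -0.11. An unadjusted p under 0.05 was reached by 1 in the same direction and by 2 in the opposite one, while 3.1% of the 12451 features tested in both regions did so in either direction and 1.53% in the positive one. Of the 16 negative features 7 were negative in the VTA, and their VTA median was 0.01. The difference between the regions was not tested, and the VTA groups of 2 and 3 give wider errors than the NAc groups. For ENSRNOG00000032825 the VTA value was -0.23 ± 0.37 and for ENSRNOG00000006761 0.14, beside 1.83 and -1.0 in the NAc.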

How the data were processed

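The authors deposited 1 table of raw counts per library, whole-number reads per Ensembl feature with no normalization, per the file headers. The submitters' processing notes list STAR 2.5.2b, Trimmomatic 0.36, Subread 1.5.2, its featureCounts and DESeq2 without saying what each did. Which build, annotation and strand setting were used, and how shared reads were handled, is not given in the sources used here. Reads of overlapping features may be divided or dropped, and low depth widens the errors of features with few counts.

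Groups came from the labels. The 14 NAc libraries were fitted together with edgeR 4.0.16 in R 4.3.3 (TMM, filterByExpr, robust quasi-likelihood fit, two-sided F test), with 4 group means and no block. P-values were adjusted over all 13248 features tested, and 481 features on X or Y and 5 on scaffolds were then left out. Standard errors were derived from the F statistic. CPM was scaled by TMM. The code was tested on simulated data. No 2 libraries of a group were copies (chi-square per degree of freedom 2.61 to 17.1 over 18 pairs).

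The question, the lists and the tests were chosen with earlier results of these data known. The naming rule took called features with a mean of at least 1 CPM: the smallest p and largest differences per direction, by identifier for 2 each way and otherwise by position. It also asked for a symbol, a condition that was dropped. Alternatives used DESeq2 1.42.0, voom of limma 3.58.1, other scalings, filters, depth, adjustment and attribution bounds, a replicate block, and each library left out.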

Additional observations from a re-analysis of the deposited data

Results flagged for a closer look

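In groups of 4 libraries, 5 of 36 comparisons had a library far from the other 3, measured by its gap to the nearest against the whole range. Chance gives about 1 in 20 where comparisons are independent. All 5 lay in mitochondrial features, which made up most of the comparisons and are not independent of each other. Neither the count nor where it fell is therefore read against that rate. Fentanyl female 1 was far above the others in 4 mitochondrial features: 28324 CPM against 22024 to 22365 in the 1039-nt feature, 66667 against 52487 to 54434 in the 1545-nt feature, 1241 against 509 to 592 in the 1378-nt feature, and 4235 against 2378 to 2479 in the 519-nt feature on the minus strand. Fentanyl male 3 was below the others in the 1143-nt mitochondrial feature, 32920 CPM against 34381 to 34537.

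The tested difference between the female and male effects picked out ENSRNOG00000032825 (1.83 log2 units), ENSRNOG00000032635 (1.73), ENSRNOG00000006761 (-1.0), ENSRNOG00000018111 (-0.73), the 204-nt mitochondrial feature (0.98) and the mitochondrial share of counts (7.64 percentage points).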

How the results depend on the processing

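The 95 calls (79 positive, 16 negative; 40 saline, 55 both, 0 fentanyl) became 249 with DESeq2 (203 and 46; 78 saline, 170 both, 1 fentanyl) and 367 with no low-count filter (266 and 101; 118, 235 and 14). Adding a replicate block for the animal number gave 221 calls (167 and 54; 23 saline, 179 both, 19 fentanyl). No pairing by number showed in the residuals, though so few pairs cannot exclude one. Residuals of 12 same-numbered pairs correlated at -0.014 on average (-0.132 to 0.176), and of 61 other pairs at 0.00276. Attribution bounds of 40% and 60% gave 66 saline, 28 both and 1 fentanyl. The count of long mitochondrial features called, 1, was 6 with DESeq2, 0 with voom and 5 without the filter. The VTA count of 0 was 1 with DESeq2. With each library left out, calls ran from 20 to 282, positive calls from 19 to 223, negative calls from 1 to 59, saline calls from 7 to 67, calls of both from 13 to 216, fentanyl calls from 0 to 18, and long mitochondrial calls from 0 to 3. Near-zero mitochondrial differences changed sign: the 784-nt feature was -0.016 without the filter and -0.052 to 0.077 with a library left out, the 681-nt feature -0.022 to 0.17 and the 1378-nt feature -0.19 to 0.33. The cause was not tested. Calls were 74 with voom, 107 with RLE scaling, 96 without mitochondrial counts in the scaling, 96 with a filter on the mean, 81 at equal depth and 94 with adjustment over these features alone. Groups of 3 and 4 rats and few counts for short features limit the precision.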

Other observations

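Among the features left out of the comparison, 4 of the 481 on X or Y passed the same edgeR threshold, all with a positive difference of effects, and 1 of the 5 on scaffolds, with a negative one. Along the leading principal component, with 21.8% of the variance among the NAc libraries, saline females lay at -18.2 to -14.6 and fentanyl females at 3.35 to 32.1, with fentanyl female 1 highest.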
